A study of Homo sapiens with 9 samples.

Results

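The heat shock proteins and their cochaperones were followed in ALL-SIL cells, a human T-cell acute lymphoblastic leukemia (T-ALL) cell line, after knockdown of *PHF6*, a chromatin-associated gene that is recurrently inactivated in T-ALL. The set holds 35 genes among the 19722 genes named on the array, and each gene was read from its brightest probe. The genes were chosen by name for their function, with earlier results of these data known. ALL-SIL cells, grown in RPMI medium with fetal bovine serum, received siRNA by electroporation (control siRNA, or one of the agents labelled *PHF6* siRNA1 and *PHF6* siRNA2), and RNA was taken 96 h later according to most labels, although a free-text description gives 72 h. The control was a Silencer Select Negative Control, and the siRNAs against *PHF6* were one Silencer Select siRNA and one ON-TARGETplus SMARTpool of several siRNAs; which of these products is siRNA1 is not stated. Each treatment had 3 independent samples, numbered 1 to 3 in the labels, and each sample was hybridised to 1 one-colour array, which gives 9 arrays from a single cell line with no untransfected cells.

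Cells answer misfolded protein by releasing heat shock factor 1 (HSF1) from chaperones, after which it binds heat shock elements in promoters and induces a common group of chaperone genes. HSP70 proteins hold unfolded chains in an ATP-driven cycle that J-domain proteins start and that nucleotide exchange factors such as HSP110 and the BAG proteins end, while HSP90 and its cochaperones mature kinases and receptors. Tumor cells often lean on these chaperones.

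Among the 35 genes, 33 were measured above background on at least 3 arrays and tested. Over all arrays, no member passed the test between both *PHF6* siRNAs and control siRNA, against 0.00893% of all probes. With the replicate number as a term in the fit, again no member passed, against 2.87% of all probes. That fit without replicate 1 called *HSPA1A* and *HSPA6*, against 0.188% of all probes. The members also differed by the replicate number. Of the 33, 22 were higher in the 3 arrays numbered 2 than in the 3 numbered 1, against 4.35% of all probes. *HSPA1A*, *HSPA6* and *HSPA1B* had the 3 largest such differences among 14676 named genes tested.

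All 9 arrays had 29659 to 33734 probes well above background, a count that overlapped between the replicate numbers, and no saturated spots. *PHF6* itself measured 11.07, 11.17 and 10.86 on the control arrays of replicates 1, 2 and 3. Its values with siRNA1 were 9.39, 9.69 and 9.12, and those with siRNA2 were 9.21, 9.28 and 9.14, on the generalized log2 scale of variance stabilizing normalization (VSN) that is used for every level below. The 6 siRNA arrays thus lay below all 3 controls (log2 difference −1.73 ± 0.14 SE, limma, adjusted p = 0.0023). Arrays numbered 1 and 2 shared one slide and those numbered 3 had another, so a difference between 3 and either other number cannot be told apart from a difference between slides. On their slides the arrays numbered 1 lay in row 1 and those numbered 2 and 3 in row 2, so a difference between 1 and either other number cannot be told apart from a difference between rows. All 10 T-cell markers, among them *CD3D*, *CD7* and *TLX1*, were well above background on each of the 9 arrays. Among B-cell genes, *CD79A* and *CD79B* were well above background on all 9 arrays and *CD22* on 0, and the erythroid *HBB* and myeloid *CD33* were also well above background on 0 arrays. The summed level of the T-cell markers ran from 119.4 to 121.3 in replicate 1, 121.8 to 124.5 in replicate 2 and 121.7 to 122.2 in replicate 3. In the same order, the sums ran from 26.4 to 26.7, 25.2 to 26.4 and 26.7 to 27.1 for the myeloid list and from 33.3 to 34.4, 33.4 to 33.8 and 34.6 to 35.3 for the erythroid list. The T-cell sum was thus higher on all arrays of replicates 2 and 3 than on those of replicate 1. The part of such shifts in the results was not tested. In RNA from whole cultures, fewer expressing cells and less RNA per cell cannot be told apart.

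The promoters of the members were searched for the heat shock element, written as alternating units GAA and TTC with 2 bases of any kind between them, read on both strands. RefSeq windows (GRCh38.p14, 250 bases before to 50 after each transcription start) were searched for 32 of the 35 genes, and those of *FKBP4*, *HSF1* and *CRYAB* were not analysed here. An element of 3 units (GAANNTTCNNGAA or TTCNNGAANNTTC) lay in 9 of the 32 genes (28.1%) and in 0.608% of all 27305 genes with a window (0.490% of 35116 windows). An element of 2 units (GAANNTTC or TTCNNGAA), which every element of 3 units also holds, lay in 21 of the 32 genes (65.6%) and in 16.2% of all genes. The 9 genes with 3 units were *HSPA6*, *HSPA8*, *HSP90AA1*, *HSP90AB1*, *CHORDC1*, *DNAJA1*, *DNAJB6*, *HSPD1* and *SERPINH1*.

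The 3-unit elements of the 5 of these that come first in the gene list are printed because the element is the sequence that HSF1 is known to recognise, with the units and the bases between them in capitals, 5′ to 3′ on the strand of the gene.
HSPA6 (chr1:161524436-161524508, + strand): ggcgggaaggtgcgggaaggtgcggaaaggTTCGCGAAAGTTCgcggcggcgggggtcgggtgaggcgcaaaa
HSPA8 (chr11:123062149-123062221, − strand): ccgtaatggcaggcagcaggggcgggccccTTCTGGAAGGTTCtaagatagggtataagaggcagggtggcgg
HSP90AA1 (chr14:102087112-102087140, − strand): gagggttcTTCCGGAAGGTTCgggaggct
HSP90AB1 (chr6:44247823-44247851, + strand): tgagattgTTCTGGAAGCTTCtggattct
CHORDC1 (chr11:90223057-90223139, − strand): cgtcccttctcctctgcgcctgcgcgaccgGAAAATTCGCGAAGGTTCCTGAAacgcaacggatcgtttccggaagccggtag
*CHORDC1* holds 3 overlapping elements in this stretch, and the others 1 each in the stretch shown. The first capital of the element lies 74 bases before the start in *HSPA6*, 55 in *HSPA8*, 88 in *HSP90AA1* and 112 in *HSP90AB1*. *HSPA1A* and *HSPA1B* each held an element of 2 units but none of 3 in these windows. A match is a string of letters, not a measured binding site, and a window without one says only that these letters are not in it.

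To see how the samples themselves varied, the arrays of each replicate number, 1 per treatment, were compared with treatment as a term in the same limma fit. Each number occurs only once in the design. The SE and p-values of these comparisons therefore rest on the spread of arrays within numbers after treatment was taken out. They do not measure how much a further number would vary. Between replicates 2 and 1, which shared a slide but not a row, 22 of 33 members (66.7%) passed the test, against 8.68% of all 33585 probes tested, and all 22 were higher in replicate 2, against 4.35% of all probes. Without the siRNA1 array of replicate 1 or that of replicate 2, 15 members (45.5%) were called in each case, against 2.36% of all probes. The median log2 difference of the 33 members was 0.63, and that of all probes was −0.01. The 3 arrays of replicate 2 all lay above the 3 of replicate 1 for 26 of the 33 members (78.8%), a pattern found in 10.5% of all probes. Of the 20 named genes with the largest rise, 9 were members.

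**Figure D1:**
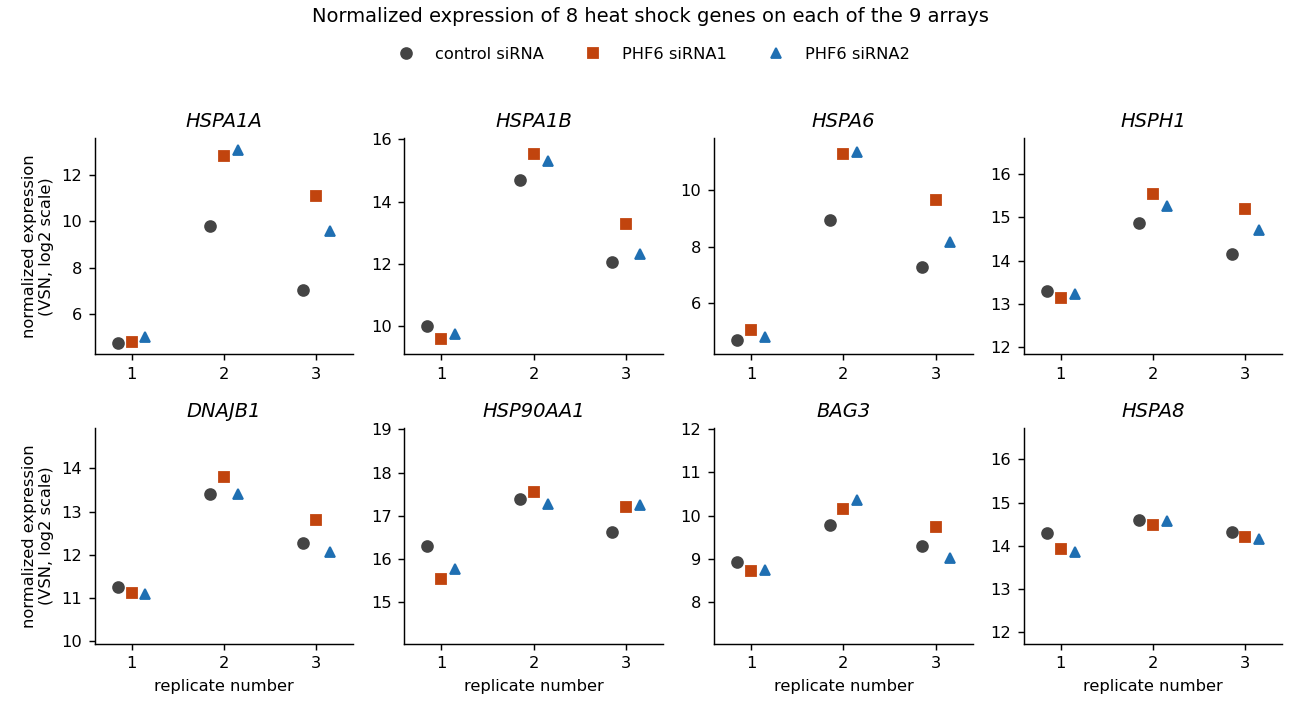
Normalized expression (VSN, generalized log2 scale, vertical axes of different range) of 8 heat shock genes on each of the 9 arrays, against the replicate number, with one symbol per treatment and no averaging. *HSPA1A* sits between 4.73 and 4.99 on the arrays of replicate 1 and between 9.81 and 13.12 on those of replicate 2, whereas *HSPA8* spans 13.86 to 14.60 over all arrays.

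The stress-induced HSP70 genes showed the widest range. *HSPA1A*, the main inducible HSP70, measured 4.73 with control siRNA, 4.77 with siRNA1 and 4.99 with siRNA2 in replicate 1, 9.81, 12.83 and 13.12 in replicate 2, and 7.02, 11.10 and 9.57 in replicate 3. All arrays of replicate 1 lay near the floor of the scale, and its probe was not well above background on the control array. The difference between replicates 2 and 1 was 7.09 ± 0.60 (log2, SE, limma, adjusted p = 0.00029). As spot intensity before normalization, the same probe read 34.9, 37.8 and 38.5 in replicate 1 against 858, 5749.6 and 9388 in replicate 2 and 151, 2400.9 and 793 in replicate 3.

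*HSPA1B*, which encodes the same protein as *HSPA1A* from a neighbouring gene, measured 10.01, 9.59 and 9.74 in replicate 1 (control, siRNA1 and siRNA2, in this order throughout), 14.69, 15.54 and 15.32 in replicate 2, and 12.04, 13.29 and 12.31 in replicate 3. Every array of replicate 2 was above every array of replicate 3, and these were above every array of replicate 1. The difference between replicates 2 and 1 was 5.40 ± 0.26, a 42.3-fold change (limma, adjusted p = 2.0e-05). Since the transcripts are near-identical, how much each of the probes reads from the other gene is uncertain.

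*HSPA6*, an HSP70 gene that is almost silent without stress, measured 4.68, 5.05 and 4.81 in replicate 1, 8.95, 11.31 and 11.36 in replicate 2, and 7.27, 9.66 and 8.19 in replicate 3. Replicate 1 was again near the floor, and the groups 1 and 2 did not overlap. The difference was 5.69 ± 0.40 (limma, adjusted p = 0.00013). A dimmer probe of the gene gave a difference of 2.52, with 6.70, 6.43 and 6.56 in replicate 1 and 7.76, 9.65 and 9.84 in replicate 2, so the size of the rise depended on the probe.

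*HSPH1*, the HSP110 that exchanges nucleotide on HSP70, measured 13.30, 13.13 and 13.23 in replicate 1, 14.87, 15.53 and 15.26 in replicate 2, and 14.15, 15.19 and 14.71 in replicate 3. The rise between replicates 1 and 2 was 4.01-fold (limma, adjusted p = 0.00041). *HSPA1L*, the testis-enriched member of the same locus, stood apart from these genes. Its values were 7.60, 7.71 and 7.79 in replicate 1, 7.47, 7.66 and 7.75 in replicate 2 and 7.28, 7.48 and 7.31 in replicate 3, and its difference between 2 and 1 was −0.07 (adjusted p = 0.71, 95% confidence interval −0.29 to 0.15).

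The constitutive HSP70 genes moved less. *HSPA8*, the cognate HSP70 present in unstressed cells, measured 14.30, 13.94 and 13.86 in replicate 1, 14.60, 14.49 and 14.58 in replicate 2 and 14.32, 14.21 and 14.17 in replicate 3. Its rise of 0.52 ± 0.11 passed the test (limma, adjusted p = 0.015). *HSPA4*, a relative of HSP110, rose by 0.50 (adjusted p = 0.013), but its dimmer probe gave 0.26 and did not pass (limma, adjusted p = 0.13). *HSPA4L* was well above background on 0 arrays and was not tested.

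Among the HSP90 chaperones, the inducible *HSP90AA1* measured 16.30, 15.53 and 15.77 in replicate 1, 17.39, 17.55 and 17.28 in replicate 2 and 16.63, 17.21 and 17.24 in replicate 3. The constitutive *HSP90AB1* measured 14.40, 14.04 and 13.88, then 14.69, 14.79 and 14.65, and 14.73, 14.76 and 14.59. In both genes replicate 1 was lowest without overlap with replicate 2. The differences between replicates 2 and 1 were 1.54 ± 0.22 (limma, adjusted p = 0.0031) for *HSP90AA1*, with 1.52 to 1.57 over its 3 probes, and 0.60 ± 0.12 (adjusted p = 0.013) for *HSP90AB1*.

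Of the 6 HSP90 cochaperones, 4 rose. These were *CHORDC1* (1.54), *CACYBP* (0.92), *STIP1* (0.67), which bridges HSP70 and HSP90, and *AHSA1* (0.63), which activates the HSP90 ATPase. *FKBP4*, an immunophilin, measured 11.58, 11.24 and 10.88 in replicate 1, 11.21, 11.20 and 11.18 in replicate 2 and 11.48, 11.36 and 11.09 in replicate 3, and its difference was −0.03 (limma, adjusted p = 0.90, interval −0.31 to 0.24). *PTGES3*, which encodes p23, differed by 0.16 (adjusted p = 0.57).

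The J-domain proteins, which hand substrates to HSP70, had 4 risers among 5 tested. *DNAJB1*, the classical stress-induced HSP40, measured 11.24, 11.11 and 11.08 in replicate 1, 13.40, 13.79 and 13.40 in replicate 2, and 12.27, 12.80 and 12.07 in replicate 3, again with no overlap between any of the numbers. Its difference of 2.39 ± 0.14 was the fourth largest among the members (limma, adjusted p = 6.2e-05). *DNAJB4* rose by 1.70, *DNAJA1* by 0.83 and *DNAJB6* by 0.69, and *DNAJB2* had a difference of 0.41 (adjusted p = 0.12). A probe for another transcript of *DNAJB6* gave −0.20 (adjusted p = 0.28). *DNAJA4* was well above background on 0 arrays and was not tested.

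In the BAG family, which releases substrates from HSP70, *BAG3* measured 8.93, 8.71 and 8.74 in replicate 1, 9.78, 10.16 and 10.36 in replicate 2 and 9.31, 9.73 and 9.02 in replicate 3, a rise of 1.31 ± 0.18 between replicates 1 and 2 (limma, adjusted p = 0.0032). *BAG1* ran the other way, with 13.93, 13.61 and 13.64, then 13.70, 13.28 and 13.38, and 13.68, 13.53 and 13.54, but its difference of −0.27 did not pass (adjusted p = 0.11). Both small heat shock proteins, which hold aggregating chains without ATP, passed the test. *HSPB1* measured 14.28, 14.17 and 13.83, then 14.58, 14.91 and 14.78, and 14.38, 14.68 and 14.04, with a rise of 0.66 from replicate 1 to 2 (adjusted p = 0.017), and *CRYAB* rose by 0.77 (adjusted p = 0.041), from values of 5.78 to 5.97 to values of 6.16 to 7.31.

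Of the 5 chaperonin genes 1 rose. *HSPD1*, the mitochondrial HSP60, measured 15.50, 15.33 and 15.33 in replicate 1, 15.79, 15.90 and 15.68 in replicate 2 and 15.55, 15.68 and 15.63 in replicate 3, and its 0.40 passed the test (limma, adjusted p = 0.040). Its partner *HSPE1*, at 15.33, 15.04 and 15.09, then 15.64, 15.77 and 15.36, and 15.48, 15.62 and 15.55, had a similar difference of 0.44 that did not (adjusted p = 0.054). The subunits of the cytosolic chaperonin that folds actin and tubulin, *TCP1*, *CCT4* and *CCT2*, had differences of 0.34, 0.14 and 0.08, and none passed. *CCT2* measured 15.21, 15.01 and 15.21 in replicate 1, 15.37, 15.17 and 15.14 in replicate 2 and 15.18, 15.17 and 15.40 in replicate 3, and *CCT4* 15.50, 15.47 and 15.59, then 15.71, 15.69 and 15.59, and 15.46, 15.46 and 15.58.

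The transcription factors of the response did not pass this test. *HSF1*, the master regulator, measured 14.82, 14.65 and 14.72 in replicate 1, 14.92, 14.89 and 14.74 in replicate 2 and 14.63, 14.55 and 14.52 in replicate 3, with a difference of 0.12 between replicates 2 and 1 (limma, adjusted p = 0.47, interval −0.09 to 0.33). *HSF2* measured 12.51, 12.39 and 12.52, then 12.80, 12.65 and 12.60, and 12.49, 12.47 and 12.48, with a difference of 0.21 (adjusted p = 0.21, interval −0.0012 to 0.43). *SERPINH1*, the collagen chaperone HSP47, rose by 1.57 (adjusted p = 0.0041), from values of 10.64 to 10.95 to values of 12.03 to 12.82. The polyubiquitin gene *UBB* rose by 0.44 (adjusted p = 0.041).

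**Figure D2:**
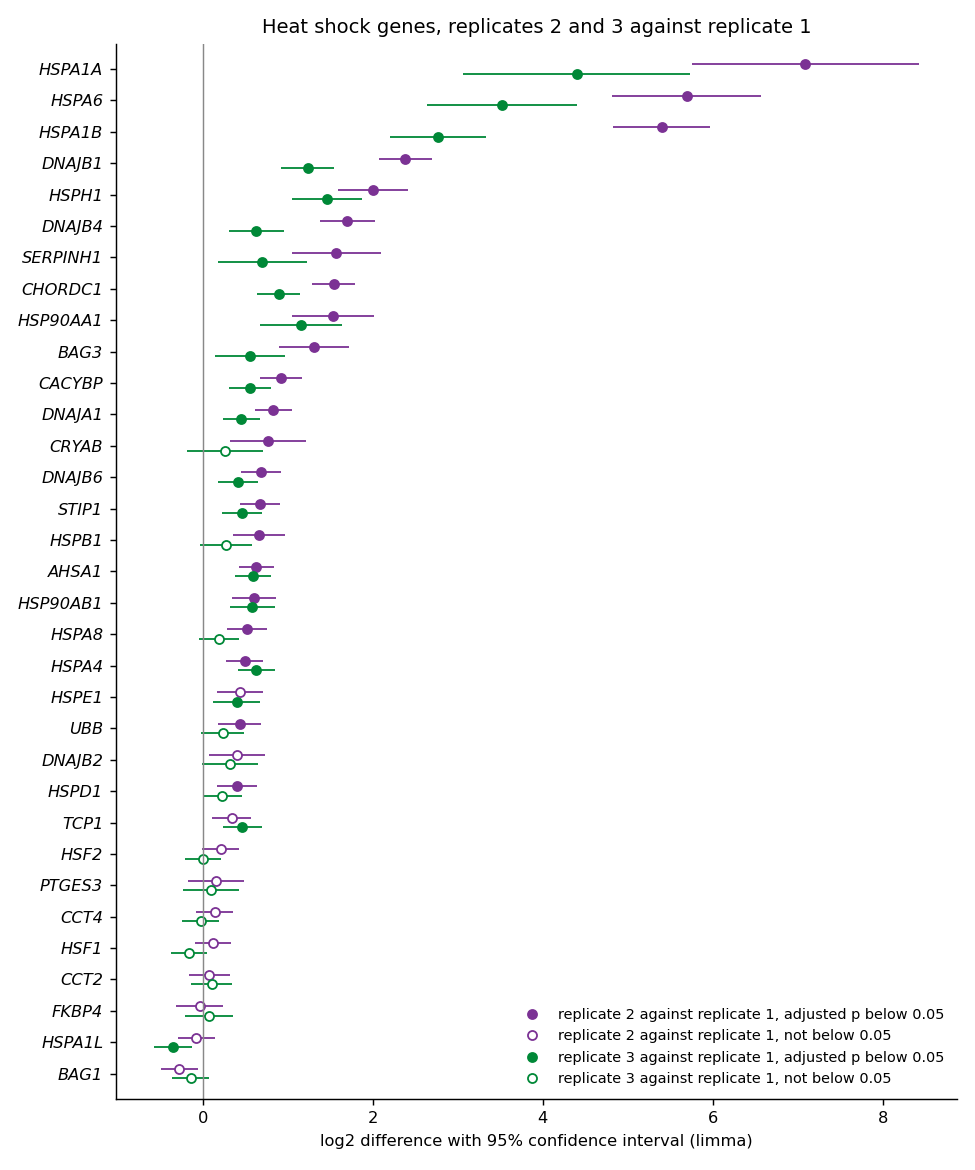
Log2 difference (horizontal axis) of each of the 33 tested heat shock genes (vertical axis) between replicates 2 and 1 and between replicates 3 and 1, with the 95% confidence interval from limma as a line; filled points have an adjusted p below 0.05. The differences run from −0.27 for *BAG1* to 7.09 for *HSPA1A* between replicates 2 and 1, and the 3 inducible HSP70 genes stand far to the right of the rest.

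Elements of 3 units and the size of the rise were set side by side as a description. The 9 genes with 3 units had differences between replicates 2 and 1 of 0.40 to 5.69, with a median of 0.83. The 21 other tested genes with a window ran from −0.27 to 7.09 with a median of 0.50. The ranges overlapped widely, and *HSPA1A*, *HSPA1B* and *DNAJB1*, with rises of 7.09, 5.40 and 2.39, held no such element in the window.

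Replicate 3 lay between the other two for the leading genes. Between replicates 3 and 1, which were on different slides, 20 of 33 members (60.6%) passed the test against 29.9% of all probes, and 19 of them were higher in replicate 3, against 12.4% of all probes. *HSPA1A* was 4.40 higher, *HSPA6* 3.53 and *HSPA1B* 2.77 (log2, limma, adjusted p = 0.0012, 0.00062 and 0.00038). *HSPA1L* was the 1 member that was lower, by a log2 difference of −0.35 (adjusted p = 0.027). The count against replicate 1 was 12 when the siRNA1 array of replicate 1 was left out and 13 when that of replicate 3 was left out. The share of all probes called without these arrays is not given here, so whether the count fell with it cannot be read.

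Between replicates 3 and 2, 12 of 33 members (36.4%) passed, against 25.8% of all probes, and all 12 were lower in replicate 3, against 14.8% of all probes. The log2 differences were −2.69 for *HSPA1A*, −2.63 for *HSPA1B* and −2.17 for *HSPA6* (limma, adjusted p = 0.013, 0.0017 and 0.0064). *DNAJB1*, *DNAJB4*, *SERPINH1*, *BAG3*, *CHORDC1*, *DNAJA1*, *CACYBP*, *HSPA8* and *HSF1* were the others, with differences of −1.15 to −0.29. The count was 6 with scaling by the 75th percentile in place of VSN, 7 with no filter on dim probes, 6 without the siRNA1 array of replicate 2 or the control array of replicate 3, and 5 without the siRNA2 array of replicate 2 or 3. For these settings too the share of all probes is not given, so a fall in the members alone cannot be read from the counts. The strict order with all arrays of replicate 1 lowest, replicate 3 in the middle and replicate 2 highest held for 9 of 33 members (27.3%) and for 0.83% of all probes. These were *HSPA1B*, *HSP90AA1*, *CHORDC1*, *STIP1*, *CACYBP*, *DNAJA1*, *DNAJB1*, *DNAJB4* and *BAG3*.

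**Figure D3:**
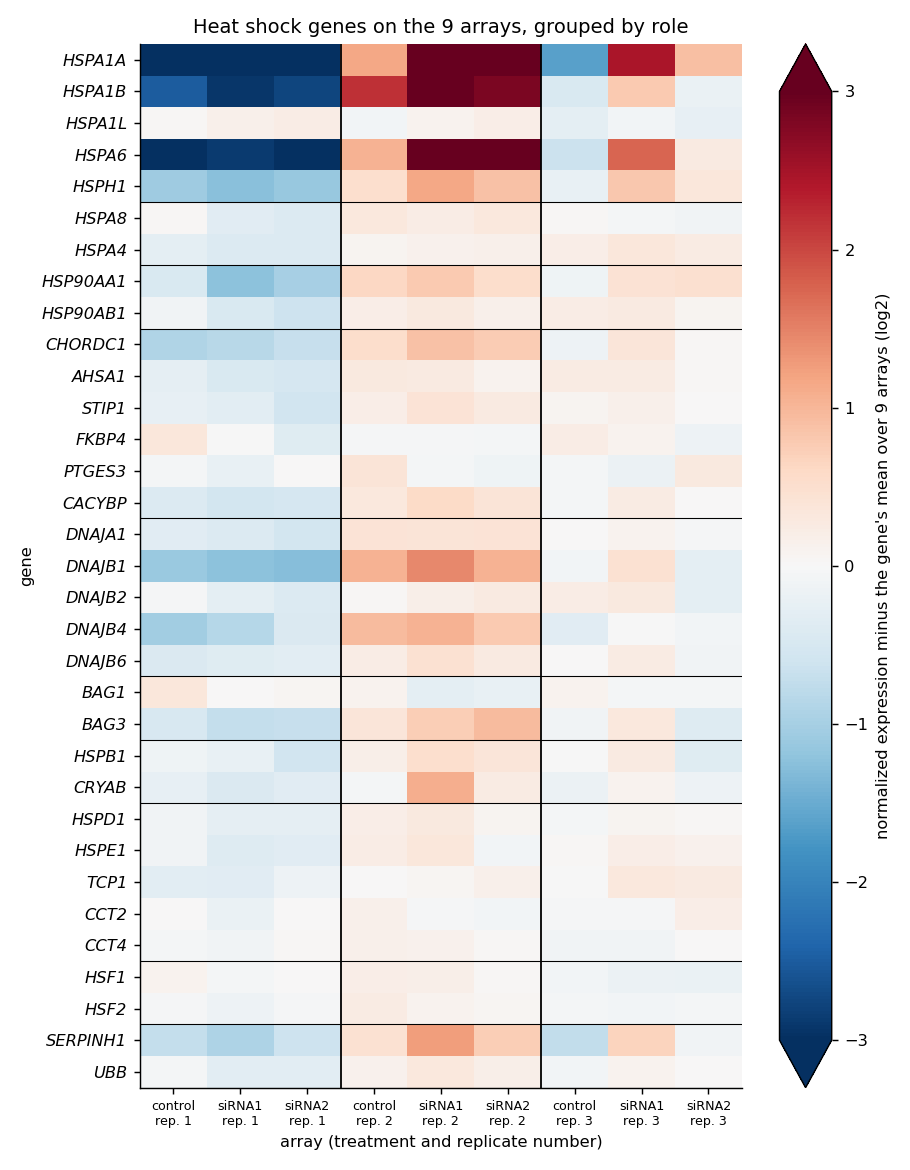
Normalized expression of the 33 tested heat shock genes (rows, grouped by role between the horizontal lines) on the 9 arrays (columns, grouped by replicate number between the vertical lines), as the log2 difference from the mean of the gene over all 9 arrays. The scale ends at 3 in either direction, beyond which colours do not change. The block of replicate 1 is blue for most genes and that of replicate 2 red, with *HSPA1A* and *HSPA6* reaching beyond both ends of the scale, while *CCT2*, *CCT4*, *HSF1* and *HSF2* stay pale.

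The comparison the study was built for, *PHF6* siRNA against control siRNA, was then read for the same genes. With both siRNAs against control, 0 of 33 members passed (limma), against 0.00893% of all probes, and 0 had an unadjusted p under 0.05, against 7.43% of all probes. The counts were also 0 for siRNA1 against control (0.00893% of all probes), siRNA2 against control (0.0119%) and siRNA2 against siRNA1 (0.0119%), with 0, 1 and 0 members at an unadjusted p under 0.05, against 5.95%, 5.91% and 2.49% of all probes. The median log2 difference of the members was −0.0022 for both siRNAs, with 16 members above 0 and 17 below, and that of all probes was −0.00011.

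When replicate numbers were blocked, which took the differences between them out of the error, the count for both siRNAs remained 0 members, against 2.87% of all probes. The shares of all probes were 0.977% for siRNA1, 1.77% for siRNA2 and 0.0387% for siRNA2 against siRNA1, and in each of these the members called were 0 as well. At an unadjusted p under 0.05 there were 7 members for both siRNAs (21.9% of all probes), 6 with siRNA1 (19.3%) and 5 with siRNA2 (19.6%), and 2 when the siRNAs were set against each other (9.75%), so these counts were near or below the share of all probes.

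*HSPA1A* had the largest estimate, 2.21 ± 1.97 without the block (log2, SE, adjusted p = 0.84, interval −2.15 to 6.56) and 2.21 ± 0.52 with it (adjusted p = 0.053). Its estimate without the block was 0.98 when the control array of replicate 1 was left out and 3.52 when that of replicate 2 was. *HSPA6* followed with 1.43 (adjusted p = 0.88, and 0.055 with the block), and the same omissions gave 0.29 and 2.42. By their brightest probes, *HSPA1A* and *HSPA6* were higher with each siRNA than with control in all 3 replicate numbers, but in replicate 1 all 3 arrays were near the floor. The dimmer probe of *HSPA6*, well above background on all 9 arrays, was lower with each siRNA in replicate 1 (6.43 and 6.56, against 6.70 with control). In replicates 2 and 3 that probe was higher with each siRNA. *SERPINH1* had 0.50, *HSPH1* 0.40 and *HSPA1B* 0.39 (adjusted p = 0.85, 0.91 and 0.97, and 0.19, 0.18 and 0.34 with the block).

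At the other end *BAG1* had −0.27 (limma, adjusted p = 0.67, and 0.098 with the block), and by its brightest probe its 6 siRNA arrays all lay below the 3 control arrays. By the brightest probes it was the 1 member of 33 whose siRNA and control arrays did not overlap (3.03%), beside 3.92% of all probes. In the dimmer probes of *BAG1* the arrays overlapped narrowly. There, 13.589 (siRNA1, replicate 1) exceeded 13.584 (control, replicate 2), and 11.901 (siRNA2, replicate 3) exceeded 11.893 (control, replicate 2). The remaining 27 members had estimates between −0.26 and 0.26. Without replicate 1, the block called *HSPA1A* (3.24, adjusted p = 0.0020) and *HSPA6* (2.02, adjusted p = 0.026), against 0.188% of all probes. In that fit 2 members were called for siRNA1 (0.107% of all probes) and 1 for siRNA2 (0.0506%).

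**Figure D4:**
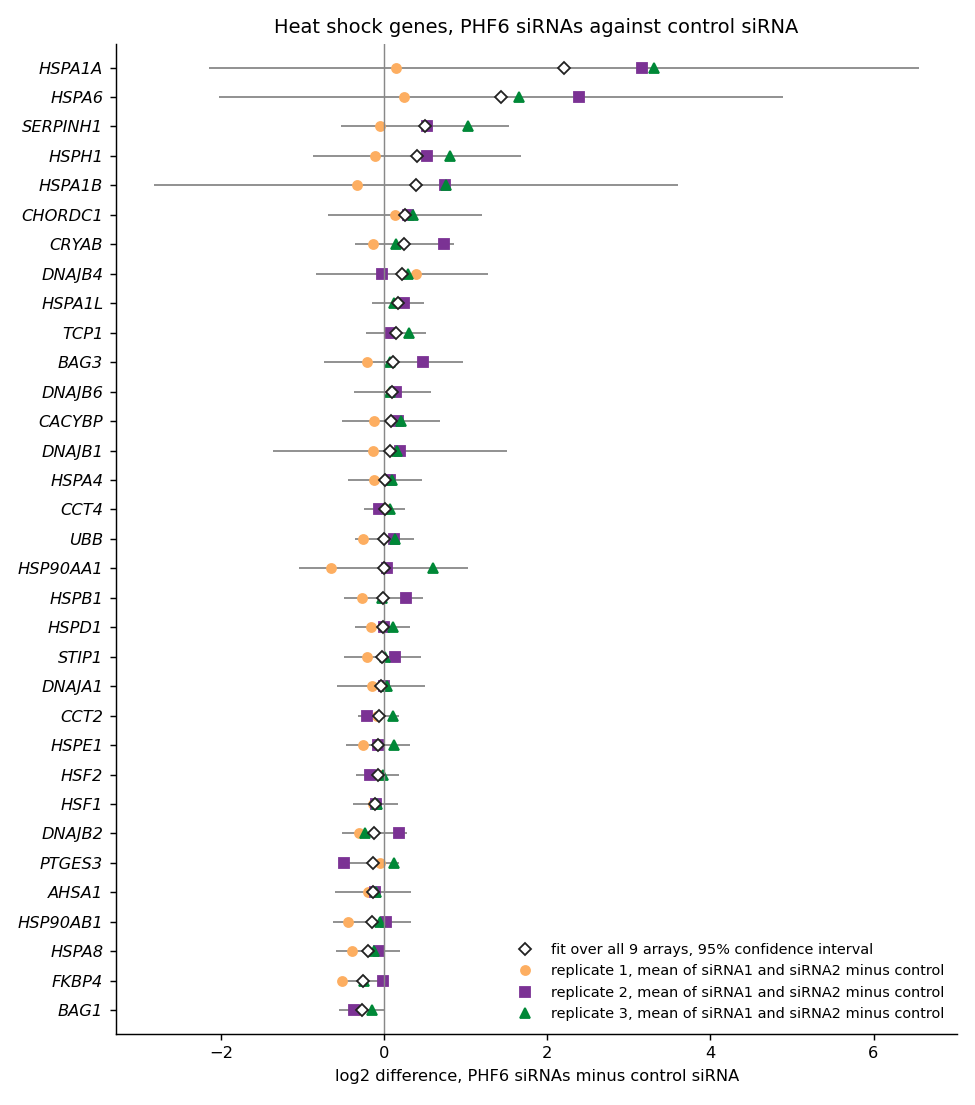
Log2 difference between *PHF6* siRNAs and control siRNA (horizontal axis) for each of the 33 tested heat shock genes (vertical axis). Diamonds are the limma estimate over all 9 arrays with its 95% confidence interval, and the coloured points are the mean of siRNA1 and siRNA2 minus the control of the same replicate number, 1 value per number. All 33 intervals are from the fit without the replicate block and cross 0. With the block, some intervals excluded 0, among them those of *HSPA1A* (1.05 to 3.37) and *BAG1* (−0.46 to −0.09), and no member passed after adjustment. For *HSPA1A* the point of replicate 1 (0.15) lies apart from those of replicates 2 (3.16) and 3 (3.31).

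The difference between siRNA and control was also read within each replicate number. Only 1 direction was counted in each, below control in replicate 1 and above it in replicates 2 and 3, and the opposite counts are not given here. Both siRNA arrays of a number were set against the same control array, so their signs are not independent. In replicate 1 both siRNA arrays lay below their control for 21 of 33 members (63.6%), beside 35.3% of all probes. In replicate 2 both lay above it for 17 members (51.5%), beside 37.9% of all probes, and in replicate 3 also for 17 (51.5%), beside 34.2%. For *HSPA1A* the mean difference was 0.15 in replicate 1, 3.16 in replicate 2 and 3.31 in replicate 3, and for *HSP90AA1* it was −0.65, 0.03 and 0.59. *HSPA1B* had −0.34, 0.74 and 0.76, *HSPH1* −0.12, 0.53 and 0.80, and *SERPINH1* −0.06, 0.53 and 1.03. Within slides the mean for *HSPA1A* was 1.65 on the slide of replicates 1 and 2 and 3.31 on that of replicate 3.

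Whether the siRNA difference itself varied between the numbers was tested by an interaction term, chosen after these values were seen, with siRNA1 and siRNA2 taken as samples of one kind. It was called for 0 of 33 members between replicates 2 and 1 (0.0448% of all probes) and for 0 between replicates 3 and 1 (0.0507% of all probes), with 3 and 5 members at an unadjusted p under 0.05, against 4.63% and 4.8% of all probes. *HSPA1A* had interaction estimates of 3.01 ± 0.69 and 3.17 ± 0.69 (limma, adjusted p = 0.68 and 0.62), and *HSP90AA1* 0.68 ± 0.25 and 1.24 ± 0.25 (adjusted p = 0.89 and 0.50). The values of *HSPA1A* in replicate 1 were near the floor, so its interaction estimates rest on a difference read close to background. Each replicate number had 1 control array, so the SE and p-values of the interaction term rest only on the spread between siRNA1 and siRNA2 within numbers. They hold no spread of control arrays, and a call or its absence cannot be read as covering it.

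The other chaperone genes, 75 genes in 7 lists outside the members of which 70 were tested, were compared in the same fits. Between replicates 2 and 1, 11 of the 70 (15.7%) passed, against the 8.68% of all probes given above; 9 were higher (12.9%, against 4.35% of all probes) and 2 lower, with a median log2 difference of 0.03. Of the 9, 6 were among the 10 genes listed as other heat-induced genes, a list with a median log2 difference of 0.44, led by *DEDD2* (1.11), *ZFAND2A* (0.93), an arsenite- and heat-inducible proteasome partner, and *HMOX1* (0.78), the oxidative-stress heme oxygenase. The other 3 were in the list of further HSP90 cochaperones, of which 14 were tested. The nucleotide exchange factor *GRPEL2* (−0.89) and the mitochondrial HSP70 *HSPA9* (−0.42) were lower (limma, adjusted p = 0.0026 and 0.033). None of the 11 further chaperonin and prefoldin subunits, the 11 further J-domain genes, the 4 further small heat shock genes and the 10 chaperones of the endoplasmic reticulum that were tested passed.

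Between replicates 3 and 1, 11 of the 70 (15.7%) passed, against 29.9% of all probes. Of these, 5 were higher, led by the disaggregase *CLPB* (0.74), *PPID* (0.45) and *NUDC* (0.44), and 6 were lower, led by *GRPEL2* (−0.74), *HSPA5* (−0.59), the HSP70 of the endoplasmic reticulum, and *HSPA9* (−0.50). Between replicates 3 and 2, 15 (21.4%) passed, against 25.8% of all probes. Of these, 5 were higher, led by *TTC4* (0.55), *GRPEL1* (0.47) and *HSPBP1* (0.41), and 10 lower, led by *DEDD2* (−0.77), *ZFAND2A* (−0.66) and *HSPA5* (−0.65). In the siRNA comparisons 0 of the 70 passed in either direction, with or without the block, and their median for both siRNAs was −0.08.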

How the data were processed

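The 9 RNA samples were each hybridised to a custom one-colour Agilent array of 57176 probes. The authors deposited the fluorescence intensity of each spot, read by Agilent Feature Extraction (9.1 per the labels, 10.5.1.1 per the file headers), without normalization between arrays, together with flags, coded 0 or 1, for spots well above background, outliers and saturated spots. They also deposited a table of log2 values normalized with VSN, which was used as an alternative; its columns correlated with the values here at r = 0.994 or more. Here the median intensity was normalized with the VSN model, fitted by code written for this work (quantile 0.9, 7 iterations), because the package was not installed. VSN compresses differences near background, so log2 differences of dim probes understate ratios of signal. Outlier spots (74 to 153 per array) were left out. Precision is limited by the number of arrays.

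The members, the gene lists and the comparisons were chosen with earlier results of these data known. Probes were named through their transcript identifiers with a RefSeq table, and a gene was read from its brightest probe (56 probes for 35 genes). Of 16 members with several tested probes, 14 had the same sign between replicates 2 and 1 in all of them, the exceptions being *DNAJB6* and *FKBP4*. The rule for naming genes was to name all members, with every array's value for the defining genes, for members called between siRNA and control in the fits over all arrays, and for the 3 largest and 3 smallest differences (in size) between replicate numbers, and at most 3 genes per direction of the other lists.

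The 33585 probes with a signal well above background on 3 or more arrays were tested with limma 3.58.1 in R 4.3.3 and adjusted by the Benjamini-Hochberg method over all of them, with a threshold of 0.05. Group means over 9 arrays gave the siRNA comparisons, and group plus replicate number gave the replicate comparisons. The replicate numbers in the labels pair the samples: deviations from the group means correlated at r = 0.312 to 0.748 in all 9 pairs of the same number and at −0.667 to 0.135 in the 27 others. What a number stands for (day, culture or labelling) is not given in the sources used here. Alternatives were the replicate block, 4 other normalizations, other filters on dim probes, all probes of a gene averaged, another prior variance, the slide as a block and leaving out arrays.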

Additional observations from a re-analysis of the deposited data

How the results depend on the processing

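The count of members called between siRNA and control remained 0 under all alternatives but one. With the replicate block and without replicate 1, 2 members were called for both siRNAs (0.188% of all probes), 2 for siRNA1 (0.107%) and 1 for siRNA2 (0.0506%), and the block without replicate 2 or 3 called 0; the block changed no other call of a member. The fall of *PHF6* missed the threshold with VSN on the processed signal (−1.84, adjusted p = 0.066) and passed in the other 25 settings. The count between replicates 2 and 1 ran from 15 to 21 without single arrays, where the share of all probes ran from 2.36% to 8.78%. It ran from 17 to 24 over 8 other settings and was 19 without replicate 3, and the share of all probes for these is not given here. Of the 22 genes, 13 were called in all 8 settings and without any single array. *HSPA1A* and *HSPA6* were called wherever tested; requiring all 9 arrays above background removed them. The count between replicates 3 and 1 ran from 12 to 20 without single arrays, and that between 3 and 2 from 5 to 12. For 3 against 2 it was 6 with the 75th percentile and 7 with no filter on dim probes. The share of all probes in these settings is not given for either comparison with replicate 3, so these counts cannot be set against it. The cause was not tested.

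Of the members followed one by one, 4 changed sign under some setting, and none of these passed the test for the difference in question. For both siRNAs, leaving out single arrays gave *HSPA1B* −0.73 to 1.61 and *HSPH1* −0.0013 to 0.78. Between replicates 2 and 1, *FKBP4* was 0.0066 with all probes averaged and −0.17 to 0.091 without single arrays, and *PTGES3* −0.018 to 0.35 without them. For both siRNAs against control, a fit on only the arrays compared is the same as that over all 9 and was not run.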
